A study of Mus musculus with 4 samples.

Results

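Cytosolic ribosomal protein genes encode the proteins of the small and the large subunit of the ribosome that translates nuclear-encoded messages. They were taken here as the protein-coding rows whose symbol is Rpl or Rps followed by a number, together with Rpsa, Rplp0, Rplp1 and Rplp2, leaving out the S6 kinases. The rule found 80 genes among the 19500 genes listed for all 4 libraries, and all 80 were among the 15933 genes tested. By the symbol alone, Rps or Rpl, 32 of the 80 were assigned to the small subunit and 48 to the large subunit. The 48 include paralogues such as Rpl7l1, which acts in pre-ribosome assembly. The 80 genes lie on 19 chromosomes, with 4 on the X chromosome.

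The series measured poly(A)-enriched RNA from mouse brain at embryonic day 13 on a C57BL/6 background. It compared 2 libraries labelled Wt1CKO, a conditional knockout of the zinc finger transcription factor gene Wt1, with 2 libraries labelled wild type that carry the floxed allele (Wt1fl/fl). Both groups therefore share the strain and the stage, and replicate numbers 1 and 2 are given for each genotype. The Cre line, the part of the brain, and whether a library came from 1 embryo or a pool are not given in the sources used here, so p-values measure the spread between these libraries only. The transcript of the targeted gene is not reported here. Listed counts per library ran between 16219310 and 17704698. The 10 markers of neural progenitors and neurons summed to between 6174 and 6617 CPM (counts relative to the scaled size of the library) in the 4 libraries, and none of them was at 0 in a library.

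As background, ribosomal proteins are made in equal proportion because each subunit holds 1 copy of nearly every protein, apart from the stalk proteins. Most of their messages in mammals begin with a C followed by a run of pyrimidines, the 5′ terminal oligopyrimidine (TOP) element, through which growth signalling controls their translation. The genes have many processed copies in the mouse genome, which arose by reverse transcription of their messages and resemble the spliced coding sequence. Neural progenitors of the embryonic brain divide rapidly and contain abundant ribosomes.

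RefSeq start windows (GRCm38.p6) were matched by symbol for 60 of the 80 genes. An unbroken run of at least 8 C or T bases on the transcribed strand, within 10 bases on either side of the annotated start, was present in 21 of these 60 genes (35.0%). It was present in 2354 of 27025 RefSeq genes (8.71%). The 30 bases around the start are shown for 3 genes picked as examples among those whose counts differed between replicate numbers. A link between the run and that difference was not tested. Capitals mark the part of the run within 10 bases of the start, and in Rpl35 the run goes on beyond it. The windows lie at chr17:33955651-33955680 (minus strand) for Rps18, at chr2:39005117-39005146 (minus strand) for Rpl35 and at chr11:114668565-114668594 (plus strand) for Rpl38.
Rps18: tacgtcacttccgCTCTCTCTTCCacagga
Rpl35: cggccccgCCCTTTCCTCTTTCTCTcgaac
Rpl38: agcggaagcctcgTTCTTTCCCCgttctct

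The ribosomal protein genes as a group took a similar share of the counts in both genotypes, but the same-numbered pairs went in opposite directions. Their share of the listed counts was 3.01% and 3.28% in Wt1CKO replicates 1 and 2, and 3.32% and 2.85% in Wt1fl/fl replicates 1 and 2. The genotype means were 3.14% ± 0.194 in Wt1CKO and 3.08% ± 0.337 in Wt1fl/fl (SD, n = 2 each), and the ranges overlapped (two-sided exact permutation test, p = 1.0, where 0.333 is the smallest value that 2 libraries against 2 allow). The Wt1CKO library was thus the lower of the first pair and the higher of the second. Both subunits took part. The large subunit held 1.71% and 1.88% of the counts in Wt1CKO, against 1.88% and 1.65% in Wt1fl/fl. The small subunit held 1.29% and 1.40% in Wt1CKO, against 1.44% and 1.20% in Wt1fl/fl. In these bulk libraries a change in the number of cells of a type and a change in RNA per cell cannot be told apart.

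**Figure D1:**
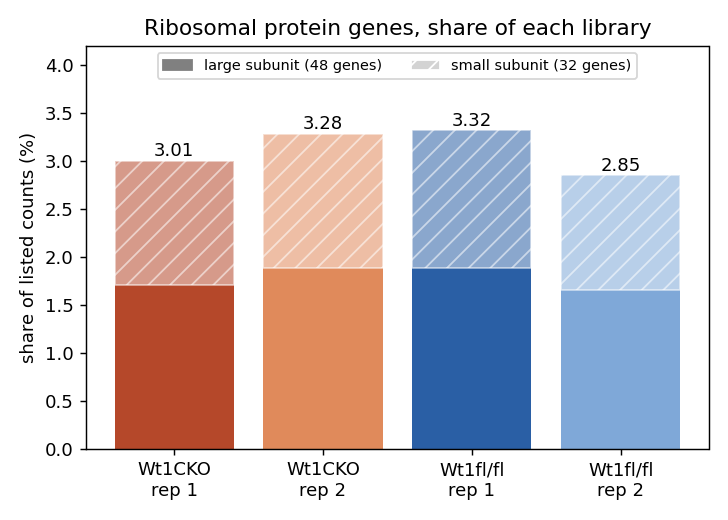
Share of each library's listed counts (%) in the 48 large subunit genes (solid) and the 32 small subunit genes (hatched), with the total above each bar. Wt1CKO replicate 2 and Wt1fl/fl replicate 1 hold 3.28% and 3.32%, above Wt1CKO replicate 1 (3.01%) and Wt1fl/fl replicate 2 (2.85%).

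Gene by gene, 67 of the 80 members were lower in Wt1CKO than in Wt1fl/fl within pair 1 and higher within pair 2, where 22.7% of all tested genes had these signs. The median log2 difference of the members was -0.17 in pair 1 (72 of 80 below 0) and 0.22 in pair 2 (74 of 80 above 0), beside medians of 0.01 and 0.00 over all tested genes. Of the others, 7 members were higher in both pairs (27.0% of tested genes), 5 were lower in both (25.9%), and Rpl23a alone was higher in pair 1 and lower in pair 2 (24.5%). In 40 of 80 members the CPM of Wt1CKO replicate 2 and Wt1fl/fl replicate 1 both exceeded those of the other 2 libraries, an order found in 12.0% of tested genes, and 0 members showed the reverse order (11.4% of tested genes). Rpl8, which lies near the catalytic centre and has no listed copy, had 719 and 806 CPM in Wt1CKO and 864 and 724 CPM in Wt1fl/fl. Rplp0, the base of the stalk that recruits translation factors, had 1475 and 1530 CPM in Wt1CKO and 1690 and 1287 CPM in Wt1fl/fl. Scaling by library totals left 66 of 80 members with these signs, and scaling by the median of ratios left 67. Other protein-coding genes with transcripts of up to 500 bases had medians of -0.18 in pair 1 and 0.08 in pair 2. Those of 501 to 1000 bases had -0.15 and 0.05, and those of 1001 to 2000 bases -0.07 and 0.01. Members of these lengths had -0.17 and 0.27, -0.17 and 0.19, and -0.16 and 0.14. In pair 1 the shorter other genes thus had medians near that of the members, and the part of length was not tested.

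Other measures also differed between libraries, mostly not in the same order as the share, and their part in this pattern was not tested. The 2 listed choroid plexus markers summed to 41.0 and 1.17 CPM in Wt1CKO replicates 1 and 2, and to 0.308 and 13.1 CPM in Wt1fl/fl replicates 1 and 2. They were highest in the libraries with the lower ribosomal protein share. Counts on rRNA genes made up 0.458% of Wt1fl/fl replicate 1 and between 0.0184% and 0.0451% of the other libraries. The 7 markers of meninges and mesenchyme summed to 31.6 to 33.4 CPM in 3 libraries and to 59.2 CPM in Wt1fl/fl replicate 2. Endothelial markers ran between 83.0 and 98.9 CPM, and microglial markers reached at most 21.8 CPM.

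**Figure D2:**
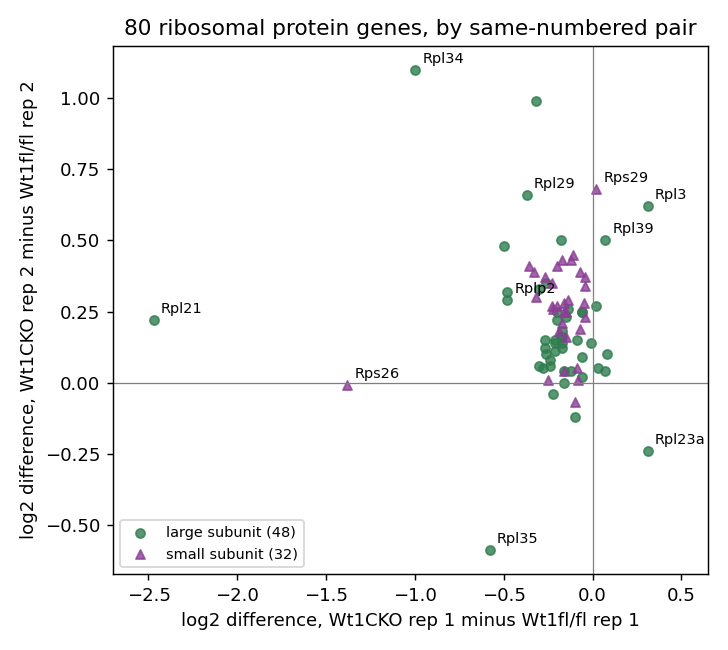
Log2 difference of each of the 80 genes in pair 1 (x axis, Wt1CKO replicate 1 minus Wt1fl/fl replicate 1) and in pair 2 (y axis, Wt1CKO replicate 2 minus Wt1fl/fl replicate 2), large subunit as circles and small subunit as triangles. 67 genes lie at the upper left, and Rpl3, Rps29 and Rpl39 lie above 0 on both axes.

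The genotype comparison asked which of these genes differ when Wt1 is deleted. None of the 80 members passed an adjusted p of 0.05 in edgeR's quasi-likelihood test, where 1 of 15933 genes (0.00628%) was called, a copy of Rpl3 described below. At an unadjusted p under 0.05 there were 2 members, Rpl3 and Rps26, against 1.56% of all tested genes. DESeq2 also called 0 members, where 5 of all genes (0.0314%) were called, with 1 member at an unadjusted p under 0.05, where 0.916% of all genes were. With the replicate number as a block 0 members were called, where 0.264% of all genes were. The median log2 fold change of the members was 0.02, beside 0.01 for all tested genes, and single genes ranged between -0.77 and 0.45. Both Wt1CKO libraries lay above both Wt1fl/fl libraries in 4 members (Rpl22, Rpl3, Rpl36a and Rpl39), where 13.4% of tested genes did, and below them in Rps26 alone, where 13.5% did.

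Rpl3, a large subunit protein next to the peptidyl transferase centre (chr15:80077794-80091868 in GRCm38, minus strand), had 836 and 829 CPM in Wt1CKO and 675 and 541 CPM in Wt1fl/fl. The groups do not overlap, and the log2 fold change was 0.45 (SE 0.13, edgeR adjusted p = 1.0). Its processed copy Rpl3-ps1 on the X chromosome went the other way, with 33.5 and 33.0 CPM in Wt1CKO and 185 and 151 CPM in Wt1fl/fl. The copy's 1210 aligned bases match the Rpl3 message except at 2 positions. The window of each has 1 of these differences in capitals. Whether reads of the gene were counted under the copy, or the copy itself differed between the genotypes, was not tested. The Rpl3 window is in exon 2 and the coding part, at chr15:80082495-80082564 (GRCm38, minus strand), and that of the copy is at chrX:13202593-13202662 (plus strand).
Rpl3: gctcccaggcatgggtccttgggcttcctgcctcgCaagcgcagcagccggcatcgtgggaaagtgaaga
Rpl3-ps1: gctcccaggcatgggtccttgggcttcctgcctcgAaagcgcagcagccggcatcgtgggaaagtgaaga
Rpl3 and its 5 listed copies together had 871 and 863 CPM in Wt1CKO and 864 and 695 CPM in Wt1fl/fl. On this sum the groups overlapped, with Wt1fl/fl replicate 2 the lowest library, and the log2 fold change was 0.15.

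Rps26, a small subunit protein at the mRNA exit channel (chr10:128624534-128626747, minus strand), had 175 and 227 CPM in Wt1CKO and 457 and 229 CPM in Wt1fl/fl. Wt1fl/fl replicate 1 alone is high, and the 2 second replicates are nearly equal. The log2 fold change was -0.77 (SE 0.31, edgeR adjusted p = 1.0). Its transcribed copy Rps26-ps1 had 273 and 193 CPM in Wt1CKO and 138 and 240 CPM in Wt1fl/fl, lowest in the library where the gene was highest. Without Wt1fl/fl replicate 2 the gene passed the test (log2 fold change -1.18, adjusted p = 0.000437, with 29 of 16585 genes called), and without Wt1fl/fl replicate 1 the log2 fold change was -0.19. The coding windows with 1 difference in capitals lie at chr10:128625215-128625284 for the gene and at chr8:107439259-107439328 for the copy, both on the minus strand.
Rps26: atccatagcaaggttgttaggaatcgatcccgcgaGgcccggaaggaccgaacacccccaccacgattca
Rps26-ps1: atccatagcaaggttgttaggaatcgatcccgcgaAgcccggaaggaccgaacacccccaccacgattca
The gene and its 2 copies together had 449.6 and 422 CPM in Wt1CKO and 595 and 472 CPM in Wt1fl/fl, and the log2 fold change of the sum was -0.29. Across the 4 libraries the highest value was 2.61 times the lowest for the gene and 1.41 times for the sum.

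Other members with the same sign in both pairs did not pass the test. Rpl39, a short protein of the exit tunnel, had 71.5 and 87.6 CPM in Wt1CKO and 68.0 and 61.8 CPM in Wt1fl/fl (log2 fold change 0.29, SE 0.14, edgeR adjusted p = 1.0). Rps29, a zinc-binding protein of the small subunit head, had 71.4 and 154 CPM in Wt1CKO and 70.6 and 95.9 CPM in Wt1fl/fl. Rpl22, an RNA-binding protein that is not required for translation in mouse, had 264 and 286 CPM in Wt1CKO and 260.4 and 237 CPM in Wt1fl/fl. In each of these the pair 1 libraries were almost equal and pair 2 carried the difference. The log2 fold changes of Rpl7l1 (0.09), Rpl36a (0.06) and Rpl4 (0.04) were within 1 SE of 0 each. On the lower side, Rpl35, a protein at the tunnel exit, had 13.8 and 25.9 CPM in Wt1CKO and 20.7 and 38.9 CPM in Wt1fl/fl. Its difference was the same in both pairs (-0.58 and -0.59), and replicate 2 was higher than replicate 1 in either genotype. Rpl41, Rpl38 and Rps24 had log2 fold changes of -0.12, -0.11 and -0.08, each within 1 SE of 0.

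Rpl34 and Rpl21 differed widely between libraries of 1 genotype. Rpl34, a large subunit protein, had 109 and 215 CPM in Wt1CKO and 219 and 100.3 CPM in Wt1fl/fl. The log2 difference was thus -1.0 in pair 1 and 1.10 in pair 2, and the fitted log2 fold change was 0.02 (SE 0.42). Its copy Rpl34-ps1 mirrored this, with 128 and 45.6 CPM in Wt1CKO and 46.7 and 115 CPM in Wt1fl/fl. The gene and its 3 copies together spanned 242 and 268 CPM in Wt1CKO and 269.9 and 218 CPM in Wt1fl/fl, so that the highest library was 1.24 times the lowest, against 2.18 times for the gene alone. The coding window of the gene crosses the junction of exons 3 and 4, within chr3:130728851-130729119 (minus strand), which the copy at chr6:71124706-71124775 (plus strand) holds as 1 uninterrupted run.
Rpl34: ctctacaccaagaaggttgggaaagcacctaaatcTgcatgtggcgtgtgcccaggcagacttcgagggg
Rpl34-ps1: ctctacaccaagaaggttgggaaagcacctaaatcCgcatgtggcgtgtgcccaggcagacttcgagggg

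Rpl21, a large subunit protein, had 22.3 and 119.7 CPM in Wt1CKO and 124 and 103 CPM in Wt1fl/fl. Wt1CKO replicate 1 alone is low. In that library the copy AC110377.1 was highest, with 230 and 104 CPM in Wt1CKO and 113 and 129 CPM in Wt1fl/fl, while the copy Rpl21-ps15 was lowest (3.82 and 58.8 CPM in Wt1CKO, 58.6 and 31.4 CPM in Wt1fl/fl). Rpl21 and its 21 listed copies together had 267 and 303 CPM in Wt1CKO and 319 and 278 CPM in Wt1fl/fl, and the highest library was 1.19 times the lowest, against 5.56 times for the gene. The fitted log2 fold change of the gene was -0.68 (SE 0.64). Without Wt1CKO replicate 2 it was -2.35 and passed the test (adjusted p = 0.00311, with 7 of 16621 genes called), and without Wt1CKO replicate 1 it was 0.07. The coding windows hold 4 of the 6 differences between the gene, within chr5:146835652-146835870 (exons 5 and 6, plus strand), and AC110377.1 at chr12:86845861-86845930 (minus strand).
Rpl21: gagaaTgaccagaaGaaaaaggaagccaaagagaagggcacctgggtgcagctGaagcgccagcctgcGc
AC110377.1: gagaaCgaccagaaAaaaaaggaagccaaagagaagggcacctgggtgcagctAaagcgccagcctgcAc
In the authors' deposited table for pair 1, Rpl21 and Rps26 were marked as significantly lower in Wt1CKO (2 of 80 members, where 1.53% of listed genes were marked lower). The authors' deposited table for pair 2 marked Rpl34 as higher (1 of 80 members, where 1.27% of listed genes were marked higher), and those marks compare 1 library with 1.

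**Figure D3:**
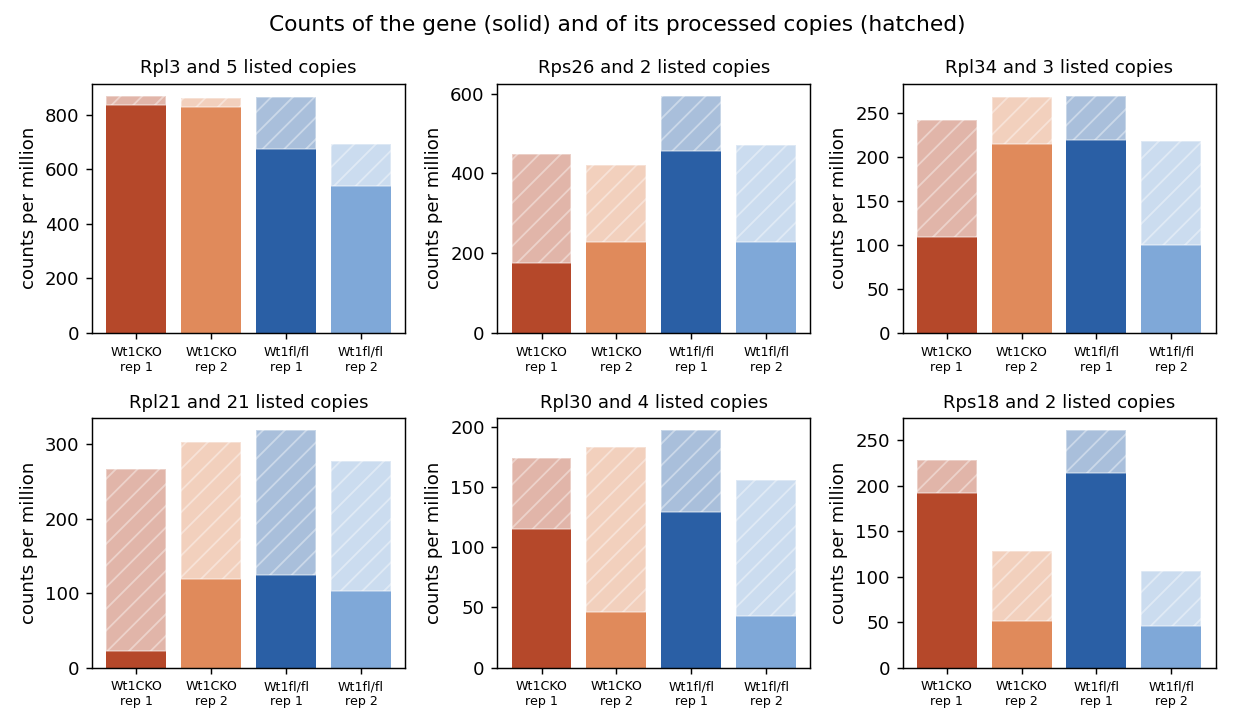
CPM of 6 genes (solid bars) with the counts of all their listed processed copies stacked on top (hatched), in each library. The sums of Rpl3, Rps26, Rpl34, Rpl21 and Rpl30 with their copies vary less between libraries than the genes alone, and Rps18 with its copies still differs 2.46 times between the lowest and the highest library.

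Copies were found for most of the family. An annotated transcript of another gene with at least 95% identity over at least 50% of both lengths was counted as a copy, and 61 of the 80 members had at least 1 such copy among the listed genes, 256 in all. Of all 50-base stretches of the coding sequences, the median member shared 91.4% with another annotated transcript, and 29 members shared every stretch. Longer stretches, of 100 bases, were shared less in some members, as in Rpl39 (86.5% of 50-base and 16.7% of 100-base stretches). In others, as in Rpl10, all were shared at both lengths. A read within such a stretch matches more than 1 annotated transcript. How such reads were counted was not examined, so counts of these genes are uncertain. Over the 80 members, log2 CPM per kb of transcript was only weakly related to the percent of shared stretches (Pearson r = -0.10, Spearman rho = -0.065). The copies together held 0.257% and 0.242% of the counts in Wt1CKO, and 0.259% and 0.256% in Wt1fl/fl. With them the family's share was 3.26% and 3.52% in Wt1CKO and 3.58% and 3.10% in Wt1fl/fl, in the same order of libraries as without them.

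The part of a gene's signal listed under its copies differed widely. It was at most 20% on average over the libraries for all but 11 members. Rpl23a, a protein at the tunnel exit, had 88.2% and 86.8% of the joint counts in its copies in Wt1CKO, and 92.7% and 84.1% in Wt1fl/fl. Rps7, a small subunit protein, had 42.9% and 33.9% in copies in Wt1CKO and 40.8% and 43.1% in Wt1fl/fl, nearly all of it in Gm6472. Rpl14 (35.0% to 36.5% over the 4 libraries) and Rps10 (31.1% to 33.7%) held steady shares in their copies. By contrast the share in copies spanned at least 10 percentage points in 8 members. It reached 54.9% and 19.7% for Rpl34 in Wt1CKO, and 18.9% and 54.0% in Wt1fl/fl. Single copies could also appear in 1 library, as Gm8210, a copy of Rpl29, did with 676 counts in Wt1fl/fl replicate 2 and between 0 and 3 in the others.

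The replicate numbers were compared because the labels give them for both genotypes, with genotype as a term in the fit. Replicate 2 differed from replicate 1 in 1138 of 15933 genes (7.14%). Of the 80 members, 12 were called: 10 were higher in replicate 2 (12.5%, against 3.70% of all tested genes) and 2 were lower (2.5%, against 3.44%). The median log2 difference over the members was -0.01, with 39 members above 0 and 41 below, beside 0.00 for all tested genes. Erythroid markers moved with the replicate number, with 1704 and 1666 CPM in the second replicates of Wt1CKO and Wt1fl/fl and 684 and 737 CPM in the first, and their part in these calls was not tested.

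Rps18, a small subunit head protein (chr17:33951999-33956001, minus strand), fell most. It had 51.9 CPM in Wt1CKO replicate 2 and 46.3 CPM in Wt1fl/fl replicate 2, against 192 and 214 CPM in the first replicates of Wt1CKO and Wt1fl/fl. The log2 difference was -2.05 (SE 0.10, edgeR adjusted p = 3.05e-10). Its copies Rps18-ps3 and AL607105.1 were higher in the second replicates. Rps18-ps3 had 43.0 and 30.6 CPM in the second replicates and 22.0 and 29.5 CPM in the first. Gene and copies together had 128 and 106 CPM in the second replicates against 228 and 261 CPM in the first, and this sum also fell (log2 difference -1.06, edgeR adjusted p = 1.02e-06). The windows around 1 of the 3 differences between gene and copy lie at chr17:33952479-33952548 (exon 3) and at chr8:107263034-107263103, both on the minus strand.
Rps18: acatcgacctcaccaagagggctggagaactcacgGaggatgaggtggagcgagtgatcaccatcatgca
Rps18-ps3: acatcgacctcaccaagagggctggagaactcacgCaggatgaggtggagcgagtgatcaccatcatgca

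Rpl30, a large subunit protein that regulates its own splicing in yeast (chr15:34440505-34443640, minus strand), also fell. It had 46.5 and 42.8 CPM in the second replicates of Wt1CKO and Wt1fl/fl, against 115 and 129 CPM in the first. The log2 difference was -1.45 (SE 0.10, edgeR adjusted p = 3.39e-08). Its copy Gm12191 went the other way, with 135 and 112 CPM in the second replicates and 58.8 and 66.9 CPM in the first. The sum over Rpl30 and its 4 copies was 183 and 156 CPM in the second replicates and 174 and 197 CPM in the first, and it did not pass the test (log2 difference -0.14, edgeR adjusted p = 0.46). Summing only the copies that carry its name, which leaves out Gm12191, kept the call (log2 difference -1.43, edgeR adjusted p = 1.14e-07). Gene and copy differ at 1 of 348 aligned bases.

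The 10 members that rose in replicate 2 were Rpl23a, Rpl35, Rps29, Rps28, Rpl13a, Rps21, Rpl36, Rpl37, Rpl38 and Rpl28. Rpl35 had 25.9 and 38.9 CPM in the second replicates of Wt1CKO and Wt1fl/fl, against 13.8 and 20.7 CPM in the first (log2 difference 0.91, SE 0.13, edgeR adjusted p = 0.000348). Rps28, a small protein at the mRNA exit, had 142 and 112 CPM in the second replicates and 79.7 and 81.7 CPM in the first (log2 difference 0.65, SE 0.10, edgeR adjusted p = 0.000512). Rps29 had 154 and 95.9 CPM in the second replicates and 71.4 and 70.6 CPM in the first (log2 difference 0.78, edgeR adjusted p = 0.000516). In all 3 both second replicates lay above both first replicates, as in 21 of the 80 members (26.2%) and 24.7% of all tested genes. Rps21, Rpl36, Rpl37, Rpl38 and Rpl28 rose by log2 differences between 0.38 and 0.54. Rpl38, which patterns the axial skeleton in mouse, had 114 and 124 CPM in the second replicates and 85.6 and 91.8 CPM in the first. Rpl23a and Rpl13a, both with few counts, rose by 0.95 and 0.60. With its 7 copies found by sequence summed, Rpl23a no longer passed (log2 difference 0.31, edgeR adjusted p = 0.068). With only the copy that carries its name, Rpl23a-ps3, it still passed (log2 difference 0.55, edgeR adjusted p = 0.0289).

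The number of calls varied with the test and the fit. DESeq2 called 4 of the 12 (Rps18, Rpl30, Rpl35 and Rps28) beside 1.76% of all genes, limma-voom called all 12 with 4 others beside 7.36% of all genes, and the fit without the genotype term called 4 of the 12 beside 1.96%. With 1 library left out the fit also had to drop the genotype term, so these counts stand beside the 4 called without it. Without Wt1CKO replicate 1, 3 members were called (0.428% of all genes), and without Wt1fl/fl replicate 1 also 3 (0.793%), 2 of the 12 each time. Without Wt1CKO replicate 2, 11 members were called (5.66% of all genes), 7 of them from the 12, and without Wt1fl/fl replicate 2, 12 were called (2.65%), 9 of them from the 12. Of the 12, Rps18 and Rpl30 alone were called whichever library was left out. By transcript length, the median log2 difference was 0.18 for the 19 members of up to 500 bases, -0.04 for the 43 of 501 to 1000 bases, -0.10 for the 16 of 1001 to 2000 bases and 0.10 for the 2 of 2001 to 4000 bases. Other protein-coding genes of these lengths had medians of 0.07, 0.00, -0.05 and -0.01. For the shortest members the median was 0.37 within Wt1CKO and 0.00 within Wt1fl/fl. Over the 80 members, which share these 4 libraries, the correlation of the difference with log2 transcript length was weak (Pearson r = -0.10, Spearman rho = -0.24).

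**Figure D4:**
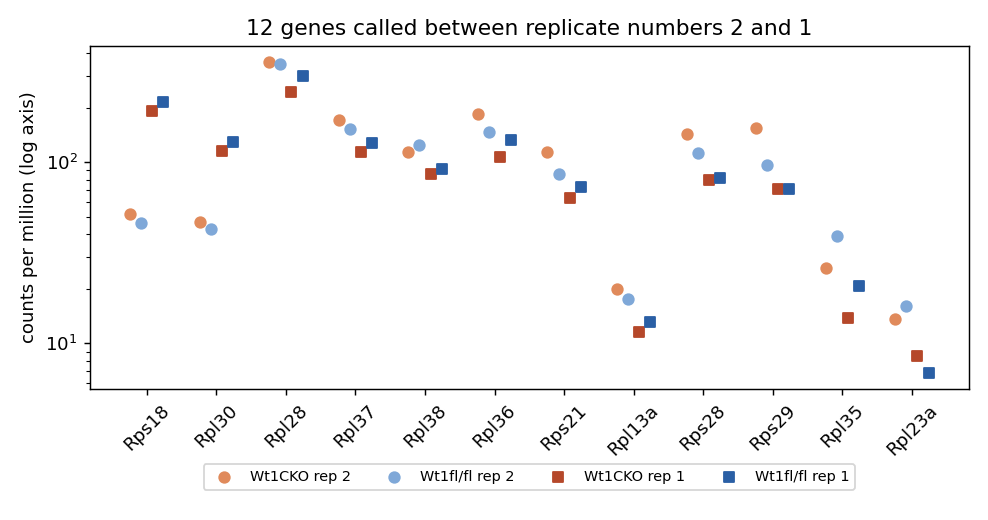
CPM (log axis) in each library of the 12 members called between replicate numbers, with circles for replicate 2 and squares for replicate 1. Rps18 and Rpl30 are lower in both second replicates and the other 10 genes are higher.

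Levels per transcript length were compared between members, as CPM per kb of the principal annotated transcript averaged over the libraries. The median was 462 CPM per kb and the quartiles were 300.0 and 679.8, a 2.27-fold span. The 5 highest members were Rplp0 (1101 CPM per kb), Rpl13 (1094), Rpl41 (998), Rps9 (964) and Rps15 (927). Rplp0 was 2.38 times the median. Rpl41, the shortest ribosomal protein, is encoded by an annotated coding sequence of 75 bases within a transcript of 437 bases, so a level per coding length would rank it higher still. Neighbours among these 5 overlapped in their library values, as Rplp0 had 1086 and 1127 CPM per kb in Wt1CKO and 1245 and 948 in Wt1fl/fl, beside 1065 and 1108 in Wt1CKO and 1195 and 1007 in Wt1fl/fl for Rpl13.

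The lowest levels belonged to genes whose exons overlap those of other annotated genes, counted on either strand. Rpl24, a large subunit protein whose loss of function causes a belly spot and tail phenotype in mouse, had 12 and 16 counts in Wt1CKO and 14 and 7 counts in Wt1fl/fl, or 1.07 CPM per kb on average. It was the only member under 10 counts in a library, and 71.5% of its exon bases also lie in Gm28037. Rpl13a, a large subunit protein linked to translational silencing after interferon, averaged 14.9 CPM per kb, with 59.3% of its exon bases in Gm45713 or Mir5121. Rpl22l1 (17.4 CPM per kb, 28.8% of exon bases shared), Rpl23a (20.2 CPM per kb, 55.4%) and Rpl35 (26.2 CPM per kb, 68.3%) completed the lowest 5. Listed copies held on average 66.1% of the joint counts for Rpl24 and 87.9% for Rpl23a. For Rpl13a, Rpl22l1 and Rpl35 they held at most 4.74%. Over the 8 members with more than 25% of their exon bases in another gene the median was 23.2 CPM per kb, and over the 67 members with none it was 513. The other 3 of these 8 were higher, with Rps10 at 593 CPM per kb (91.6% of exon bases shared), Rpl5 at 346 (46.6%) and Rpl30 at 146 (34.7%). Counting of bases shared by 2 genes was not stated in the sources used here beyond the counter's name, and its part in these levels was not tested. Rps20 has an annotated transcript of 3706 bases with a coding part of 357 bases, and averaged 726 CPM per coding kb.

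**Figure D5:**
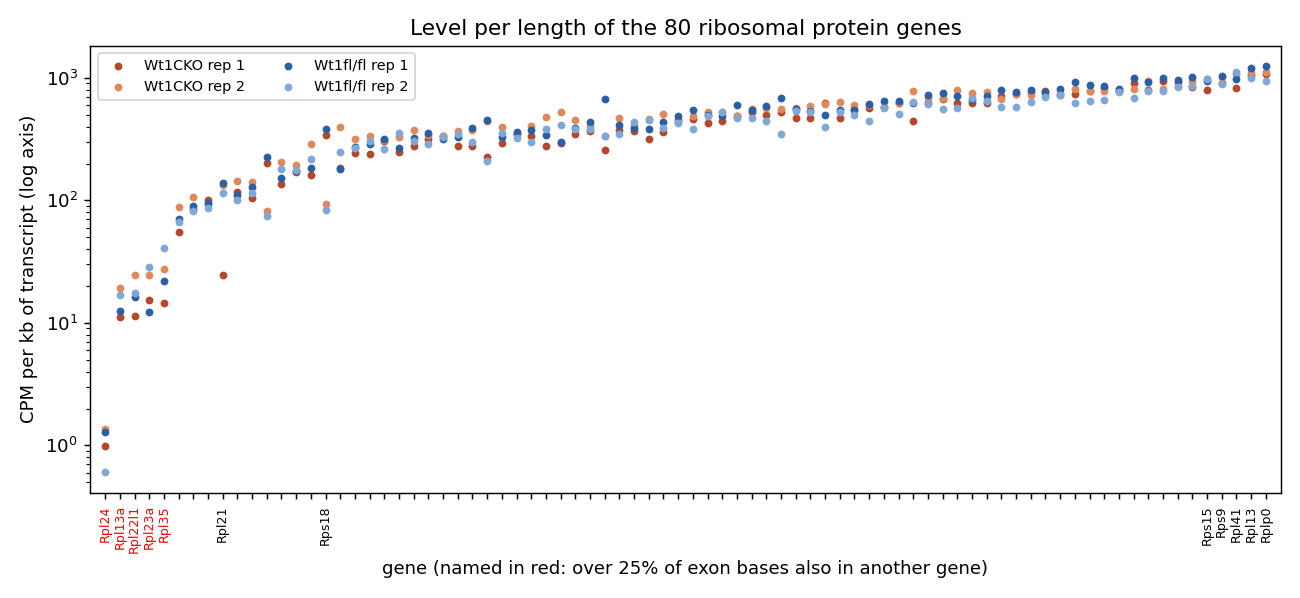
CPM per kb of transcript (log axis) of the 80 genes in each library, ordered by their mean and named at both ends of the order and for Rpl21 and Rps18, with names in red where over 25% of the exon bases are also in another gene. The 5 lowest genes, from 1.07 (Rpl24) to 26.2 (Rpl35), are all red, and Rpl21 and Rps18 have libraries far from their others.

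Paralogues of ribosomal proteins were lower than their partners in every library. Rpl7l1, which acts in pre-ribosome assembly, had 101 and 93.9 CPM per kb in Wt1CKO and 95.2 and 87.4 in Wt1fl/fl, against 826 and 782 in Wt1CKO and 862 and 655 in Wt1fl/fl for Rpl7. Rps27l, a p53-responsive paralogue, had 85.5 and 107 CPM per kb in Wt1CKO and 89.7 and 81.4 in Wt1fl/fl, against 375 and 469.8 in Wt1CKO and 409 and 349 in Wt1fl/fl for Rps27. Rpl22l1 had 11.4 and 24.5 CPM per kb in Wt1CKO and 16.2 and 17.6 in Wt1fl/fl, against 556 and 603 in Wt1CKO and 549 and 500.2 in Wt1fl/fl for Rpl22, which restrains Rpl22l1 in mouse. None of these paralogues passed the genotype test, with log2 fold changes of 0.09, 0.17 and 0.09.

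The stalk proteins and the laminin-receptor protein did not pass the genotype test, and their libraries overlapped between the genotypes. Rplp1 had 312 and 399 CPM in Wt1CKO and 355 and 283 CPM in Wt1fl/fl (log2 fold change 0.16, SE 0.17), and Rplp2 had 188 and 328 CPM in Wt1CKO and 263 and 267 CPM in Wt1fl/fl (-0.04, SE 0.24). These acidic proteins form dimers on Rplp0, whose log2 fold change was 0.01 (SE 0.14). Rpsa, a small subunit protein also known as the laminin receptor, had 1468 and 1368 CPM in Wt1CKO and 1548 and 1358 CPM in Wt1fl/fl (-0.04, SE 0.11).

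Genes around the ribosome were read from 4 lists. Of 23 tested translation factors and ubiquitin-fusion ribosomal proteins whose messages are of the TOP class, 76 ribosome biogenesis factors, 36 subunits and factors of RNA polymerases I and III, and 77 mitochondrial ribosomal proteins, 0 were called by genotype with edgeR or with DESeq2, and with edgeR 2 of the 211 genes (0.948%) had an unadjusted p under 0.05, where 1.56% of all tested genes did. These were Tsr1, a factor of small subunit maturation, with 32.2 and 26.0 CPM in Wt1CKO and 21.3 and 21.7 CPM in Wt1fl/fl (log2 fold change 0.44, SE 0.16), and Polr3b, the second largest subunit of RNA polymerase III, with 38.9 and 40.2 CPM in Wt1CKO and 27.4 and 33.1 CPM in Wt1fl/fl (0.39, SE 0.14). The groups do not overlap in either gene, as in 13.4% of tested genes with both Wt1CKO libraries higher. Heatr1, a factor of rRNA transcription and processing, had 61.8 and 52.0 CPM in Wt1CKO and 44.5 and 50.7 CPM in Wt1fl/fl, and Polr1c, shared by polymerases I and III, had 68.9 and 70.2 CPM in Wt1CKO and 61.0 and 60.0 CPM in Wt1fl/fl. The lists' median log2 fold changes were 0.01, 0.05, 0.04 and -0.03, beside 0.01 over all tested genes.

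By pair, the mitochondrial ribosomal proteins had medians of -0.13 and 0.06 and the TOP-class factors -0.09 and 0.06, with the signs of the cytosolic ribosomal proteins and smaller sizes. Biogenesis factors (0.03 and 0.04) and polymerase subunits (0.08 and 0.00) did not take these signs. The difference between these lists and the ribosomal protein genes was not tested. Other protein-coding genes of 501 to 1000 bases had similar medians by pair (-0.15 and 0.05), and the part of length in these lists was not tested. In the mitochondrial list, Mrpl34 had 50.8 and 49.8 CPM in Wt1CKO and 66.6 and 53.8 CPM in Wt1fl/fl, and Mrps6 had 11.9 and 15.7 CPM in Wt1CKO and 18.4 and 17.1 CPM in Wt1fl/fl. Among the TOP-class genes the smallest p belonged to Hnrnpa1, an RNA-binding protein of splicing, with 1793 and 2009 CPM in Wt1CKO and 1645 and 1742 CPM in Wt1fl/fl (log2 fold change 0.17, SE 0.10). The other genes named by smallest p did not pass either, with log2 fold changes of -0.12 for Eif3k, 0.10 for Eif4b, 0.19 for Las1l, 0.20 for Polr3k and -0.46 for Mrps18c. Between replicate numbers, 7 of the 211 genes of the 4 lists were called higher in replicate 2 (3.32%, where 3.70% of all tested genes were) and 2 lower (0.948%, where 3.44% were).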

How the data were processed

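Poly(A)-enriched RNA of 4 libraries was measured. The counts per gene were deposited by the authors as raw counts in 1 table per same-numbered pair, with log2 fold changes, fold ratios, p-values and adjusted p-values from their own comparison of 1 library with 1. Per the submitters' processing notes, reads were aligned with TopHat2 2.0.12 and Bowtie2 2.2.3 and counted with HTSeq 0.6.0, and the build is given as mm9. The positions of 71 of the 80 members, however, were identical to GENCODE vM21 (GRCm38), which was used for transcripts, lengths, exon overlaps and sequences, and all coordinates printed are GRCm38. How the counting treated strand was not stated. The authors also deposited CPM of each library, scaled by their own library totals, and these were not used for tests.

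The 15933 genes listed in both tables that passed filterByExpr (minimum count 10) were scaled by TMM (trimmed mean of M values) and tested with edgeR 4.0.16 (quasi-likelihood, Benjamini-Hochberg threshold 0.05) in R 4.3.3, for genotype and for replicate number with genotype as a term. CPM are on TMM-scaled library sizes, and log2 differences within pairs use a prior count of 2. A standard error is the log2 fold change divided by the square root of its F statistic. Copies were found with blastn 2.17.0, and counts of copies absent from 1 table were taken as 0 there. Alternatives used DESeq2 1.42.0, limma 3.58.1, other filters and scalings, summed copies, each library left out and the replicate block. Members named are those called, those with the same sign in both pairs, the highest and lowest per length, the paralogues, stalk and Rpsa, and those with most counts in copies. Rpl5, Rpl8, Rps10, Rps20 and single copies such as Gm8210 were named after their values were seen. Members and lists were chosen with earlier results of these data known. The fits were tested on simulated counts drawn independently for each gene, which do not cover reads shared between genes and their copies. Depth was 16219310 to 17704698 counts per library, so counting error of the family's share is small against the spread between libraries. It is not small for genes or copies with few counts, such as Rpl24 with 7 to 16 counts.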

Additional observations from a re-analysis of the deposited data

Results flagged for a closer look

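The share of counts in ribosomal protein genes moved in opposite directions between the replicate numbers of the 2 genotypes. Replicate 2 minus replicate 1 was 0.274 percentage points in Wt1CKO and -0.477 percentage points in Wt1fl/fl. The difference between the genotypes in this respect was not tested, since each value comes from 1 library against 1.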

How the results depend on the processing

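Of 397 recomputed values, 331 were scored as unchanged. For single genes this meant the same direction and the same side of the threshold. For the number of calls, the median and the share it did not require the same number or sign. The median log2 fold change (0.02 with all libraries) and the difference in share both turned negative without Wt1CKO replicate 2 (-0.09 and -0.079) and without Wt1fl/fl replicate 2 (-0.05 and -0.181). The genotype comparison called 0 members under every setting except without 1 library, where the count ran between 0 and 1 (Rpl21 without Wt1CKO replicate 2, Rps26 without Wt1fl/fl replicate 2). Leaving out 1 library gave a median log2 fold change between -0.09 and 0.10, 0 to 1 called genes of the companion lists (Mrpl42 without Wt1fl/fl replicate 1), and a difference in share between -0.181 and 0.297 percentage points, against 0.058 with all libraries. Between replicate numbers 12 members were called, against 4 with DESeq2, 4 without the genotype term, and 3 to 12 without 1 library. There the fit had replicate number alone, because 3 libraries leave no residual degrees of freedom with both terms. Without 1 library the genotype log2 fold change of some genes changed sign without passing the threshold on the other side. It ran between -0.03 and 0.11 for Rpl4, -0.33 and 0.12 for Rpl38, -0.32 and 0.05 for Rpl41, -0.17 and 0.01 for Rps24, -2.35 and 0.07 for Rpl21, -0.22 and 0.89 for Rps29, and -0.55 and 0.69 for Rpl34. The causes were not tested. Summing copies by sequence was chosen after seeing the data, and it ended the calls of Rpl30 and Rpl23a between replicate numbers, which summing copies by name kept. With the replicate block 0 members and 42 of all genes were called by genotype, against 1 without it, with Rpl3 at an adjusted p of 0.0692 and Rpl35 at 0.0992. The labels do not tie same-numbered samples to a litter or day, and their deviations correlated at 0.281 over all tested genes and at 0.595 over the 80 members, across 2 pairs only.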
